A study of Mus musculus with 53 samples.

Results

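Embryonic globins and other genes of the red cell were followed through the development of mouse cornea, skin and bladder and across organs at embryonic day 18.5. The set holds 9 listed genes: the embryonic globins Hbb-y, Hbb-bh1 and Hba-x, the heme enzyme Alas2, the membrane genes Epb42 and Slc4a1, and Ahsp, Hemgn and Klf1. Each gene was found by its symbol in the platform annotation and read from its brightest probe set. A probe set of their own was found for 8 of the 9 on both array types, out of 19938 genes on the Gene ST arrays and 18194 on the 3′ arrays. Ahsp is not analysed here.

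Total RNA was hybridised to 53 arrays in 18 groups of 3, except bladder at embryonic day 14.5 with 2. The 27 Gene ST arrays held whole cornea at E14.5, E15.5, E17.5, P3, P7, P14 and P28 (E and P are embryonic and postnatal days), and lung and trachea at E18.5. The older 3′ type was used for the other 26 arrays. They held dorsal skin and bladder, each taken at E14.5, then E16.5, then E18.5, and 3 gut organs of E18.5, namely stomach, esophagus and the proximal small intestine. All groups were wildtype CB6 mice except bladder at E18.5, which was heterozygous for Get1 (Get1 +/-), a grainyhead-like transcription factor also named Grhl3, so that age and genotype cannot be told apart in that group. Whether replicate arrays stand for different animals or litters is not said in the labels, so each p-value measures the spread between arrays. The series text credits the arrays of cornea, of bladder and of skin at E18.5 to previous studies by this laboratory.

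The first red cells of the mouse embryo, called primitive, arise in the yolk sac and enter the blood with a nucleus, carrying the beta-like globins of Hbb-y and Hbb-bh1 and the alpha-like globin of Hba-x. Definitive red cells, made in the fetal liver and later in bone marrow, replace them and use the definitive beta and alpha globin genes, a replacement known as globin switching. Red cells reach each organ with its blood, so in whole tissue fewer red cells and less RNA per red cell cannot be told apart.

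Embryonic globins, Alas2 and shared definitive globin probe sets, which match several genes each, parted over the ages measured. Shown for that reason are the stretches before the transcription starts of an embryonic and a definitive gene of each globin cluster, and of Alas2. Each is 250 bases from RefSeq (assembly GRCm38.p6), read 5′ to 3′ on the gene's strand. Capitals mark GATAA and CACCC on either strand (TTATC and GGGTG when read on the other), the letters that GATA1 and KLF1, the main transcription factors of red cells, are known to bind. Hbb-y lies at chr7:103853208-103853457 on the minus strand, Hbb-bt at chr7:103813924-103814173 on the minus strand, Hba-x at chr11:32276350-32276599 on the plus strand, Hba-a2 at chr11:32296242-32296491 on the plus strand and Alas2 at chrX:150547167-150547416 on the plus strand.
Hbb-y: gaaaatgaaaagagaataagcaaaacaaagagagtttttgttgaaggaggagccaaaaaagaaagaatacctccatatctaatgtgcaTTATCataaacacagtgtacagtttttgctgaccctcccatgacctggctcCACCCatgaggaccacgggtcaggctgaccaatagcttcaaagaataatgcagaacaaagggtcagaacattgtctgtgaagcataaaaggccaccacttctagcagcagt
Hbb-bt: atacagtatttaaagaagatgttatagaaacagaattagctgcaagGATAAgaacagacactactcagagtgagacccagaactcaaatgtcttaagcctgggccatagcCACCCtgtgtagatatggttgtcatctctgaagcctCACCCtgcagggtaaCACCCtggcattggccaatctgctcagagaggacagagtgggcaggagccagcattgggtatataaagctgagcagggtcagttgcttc
Hba-x: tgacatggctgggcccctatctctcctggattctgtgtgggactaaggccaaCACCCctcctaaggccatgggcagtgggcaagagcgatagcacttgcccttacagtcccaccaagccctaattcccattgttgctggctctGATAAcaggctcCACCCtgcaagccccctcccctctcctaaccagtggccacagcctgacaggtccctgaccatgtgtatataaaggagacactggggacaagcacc
Hba-a2: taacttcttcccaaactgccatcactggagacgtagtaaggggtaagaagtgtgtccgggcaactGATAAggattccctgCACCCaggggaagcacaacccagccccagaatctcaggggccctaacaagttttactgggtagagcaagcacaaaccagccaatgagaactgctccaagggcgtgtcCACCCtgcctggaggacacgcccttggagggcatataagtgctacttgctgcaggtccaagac
Alas2: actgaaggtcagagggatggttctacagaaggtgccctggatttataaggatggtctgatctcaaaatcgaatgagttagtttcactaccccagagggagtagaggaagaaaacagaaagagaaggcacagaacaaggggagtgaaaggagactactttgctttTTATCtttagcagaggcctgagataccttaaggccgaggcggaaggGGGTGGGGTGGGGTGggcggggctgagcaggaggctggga

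GATAA stood in each of the 6 promoters of listed genes found in the RefSeq table and in 22.6% of 32851 promoters of the same length. CACCC stood in 4 of the 6 (Hbb-y, Hba-x, Alas2 and Klf1) and in 52.0% of all, and both stood together in these 4 and in 10.1% of all. The letters of the motifs did not overlap in the promoters shown. Hbb-y held GATAA starting 162 bases before the start and CACCC at 111, and Hba-x held GATAA at 107 and CACCC at 198 and 95. Both definitive genes shown held the same pair of motifs, so their presence did not separate embryonic from definitive genes. Alas2 held GATAA at 86 and 3 copies of CACCC at 40, 35 and 30. The promoters of Hbb-bh1, Slc4a1 and Ahsp are not shown.

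Levels below are log2(intensity + 16) after quantile normalization within an array type, so 1 unit is 2-fold, and an intensity of 0 enters as 4. A gene was said to rise or fall where limma's moderated test over all genes gave a Benjamini-Hochberg adjusted p under 0.05 and the change was at least 2-fold. Neither detection calls nor saturation flags were used, so whether a low level is above background is not known, and the number of arrays limits the precision.

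Some arrays stood apart or went against their labels. On the 3′ type, differences between the 2 brightest probe sets of 2792 genes placed 9 arrays (small intestine and skin at E16.5 and E18.5) at 66.1 to 80.7 on a first component with 85% of the variance and the other 17 at -42.3 to -35.5. These array sets cross the skin comparisons with E14.5, where set and age cannot be told apart. On the Gene ST type the same measure placed cornea at -9.72 to -4 and lung and trachea at 23.6 to 25.1, on a component with 65% of the variance. Tissue and array set cannot be told apart between cornea and these organs, also for the lung marker below. The arrays labelled lung had the lung marker Sftpc at 6.83 ± 0.13 (SD, n = 3), within the 6.64 to 6.87 of the cornea group means, so they are called the arrays labelled lung. Cornea at E14.5 had the corneal keratin Krt12 at 5.99 against 13.16 at E15.5, with the eye factor Pax6 at 11.04. Replicates 1 and 2 of E14.5 skin share an identifier and may be 1 sample measured again. Their fetal liver marker Afp was at 13.39 and 13.24 against 6.5 in replicate 3. Replicates 2 and 3 of E18.5 skin had Sftpc at 13.73 and 13.21 against 4.07 in replicate 1. In array order, the summed intensity of the 5 lung markers was 28, 8721 and 126 in E16.5 skin and 7213, 8056 and 83 in small intestine. The small intestine array numbered 4 had the squamous keratin Krt13 at 12.3 against 4.6 and 5.94 in the others.

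In the cornea the embryonic globins fell sharply between E14.5 and E15.5 and stayed far below their first level through P28. Over the 7 ages 5 of the 8 measured genes passed limma's F test (Hbb-y, Hba-x, Hbb-bh1, Alas2 and Slc4a1), against 21.7% of all genes. From E14.5 to E15.5, 4 of the 8 fell (Hba-x, Hbb-y, Hbb-bh1 and Alas2), against 2.26% of all genes called lower, and none rose. The median change of the 8 was -1.1 against -0.02 over all genes.

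Hbb-y, the embryonic beta-like globin called epsilon-y, had a level of 14.7, 14.21 and 14.21 in the 3 arrays at E14.5, from deposited intensities of 23050, 20160 and 20930. At E15.5 it was at 10.21, 6.96 and 6.97 (intensities 1118, 120.1 and 108.2), a change of -6.33 ± 0.65 (SE) that is 80.2-fold lower (limma, adjusted p = 2.02e-07). The ages did not overlap, and replicate 1 at E15.5 stood well above its 2 partners. At E17.5 the levels were 9.82, 7.14 and 9.28, and at P3 they were 5.31, 6.58 and 6.07. From P7 to P28 all 9 arrays lay between 6.2 and 7.34.

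Hba-x, the embryonic alpha-like globin called zeta, was at 14.35, 14.35 and 13.65 at E14.5. At E15.5 it was at 7.98, 7.54 and 7.41, a change of -6.48 ± 0.18 (SE) that is 89-fold lower (limma, adjusted p = 1.11e-16). Its E15.5 arrays lay close together, unlike those of Hbb-y. At E17.5 it was at 7.99, 7.79 and 7.99, and group means from P3 to P28 ran from 7.09 to 7.33.

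Hbb-bh1, the beta-h1 globin of the earliest primitive red cells, was at 11.85, 12.4 and 11 at E14.5. At E15.5 it was at 6.5, 6.23 and 5.93, a change of -5.53 ± 0.26 (SE) that is 46.2-fold lower (limma, adjusted p = 4.29e-13). Every later cornea array lay between 5.82 and 6.89. In all alternatives run, each of these 3 falls kept its direction and its call, also with any 1 array left out.

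**Figure D1:**
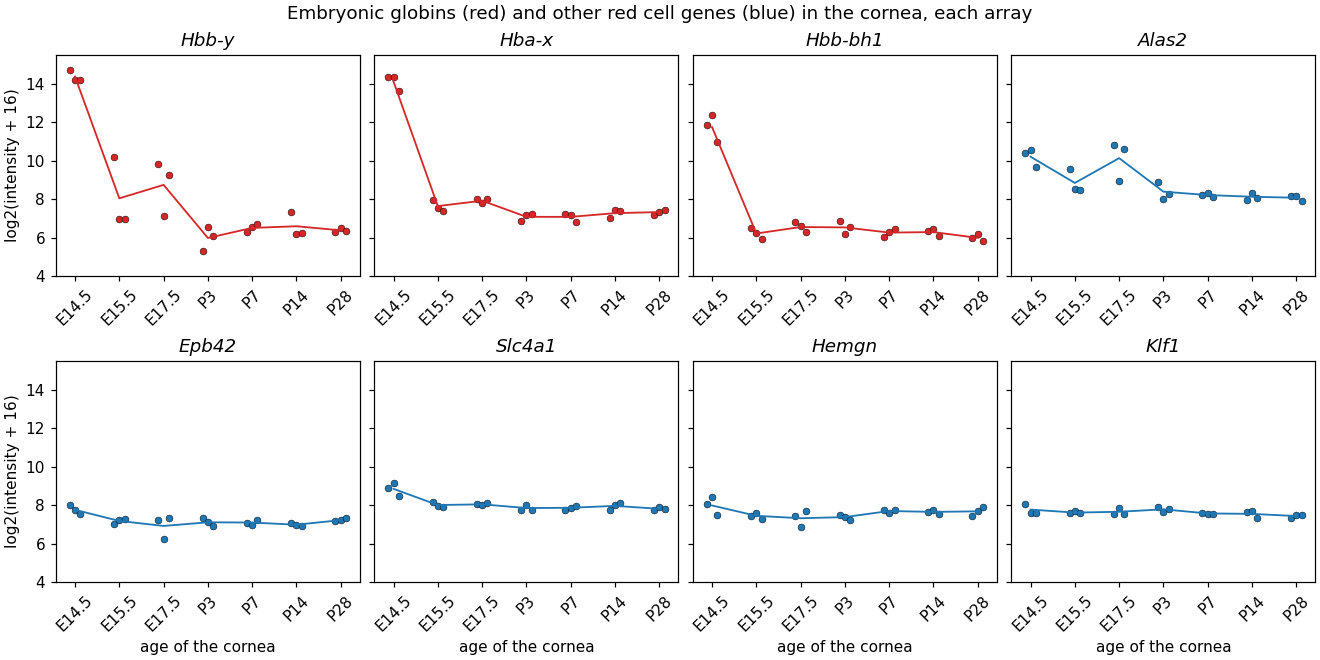
Level of each measured gene in every cornea array, log2(intensity + 16) against age. Points are arrays (n = 3 at each age) and lines join the means, with embryonic globins in red and other red cell genes in blue. The 3 embryonic globins sit between 11 and 14.7 at E14.5 and at 10.21 or below in every later array.

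The definitive globins did not fall with them. The probe sets for definitive beta globin match 4 genes and those for alpha globin match 2, so no single gene is named. The brighter shared beta probe set was at 13.82, 13.71 and 13.58 at E14.5 and at 13.86, 13.23 and 13.51 at E15.5, a change of -0.17 (limma over all probe sets, adjusted p = 0.861). The shared alpha probe set was at 13.7, 13.62 and 13.75 and then at 13.82, 13.27 and 13.64, a change of -0.11 (adjusted p = 0.912). Both ages overlapped for beta and for alpha.

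Within each array, the level of the embryonic gene relative to its definitive partner therefore dropped. The change of Hbb-y less that of shared beta globin was -6.16, that of Hbb-bh1 less shared beta -5.37, and that of Hba-x less shared alpha -6.36. The E14.5 and E15.5 arrays did not overlap in any of the 3 differences (exact permutation test, two-sided p = 0.1, the smallest that 3 against 3 arrays allow). The probe sets are of different length and sequence, so the differences compare changes, not amounts.

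Definitive globin signal was lower in the cornea after birth. The shared beta probe set was at 13.89, 13.63 and 13.97 at E17.5 and at 13.31, 11.97 and 12.02 at P3. At P7 it was at 10.42, 11.67 and 11.44, at P14 at 9.31, 12.74 and 10.74, and at P28 at 9.52, 9.91 and 9.85. No step between neighbouring ages passed the test, with -1.39 from E17.5 to P3 (limma, adjusted p = 0.0958) and -1.26 from P3 to P7. From E14.5 to P28 shared beta fell by 3.94 (adjusted p = 4.3e-06) and shared alpha fell by 4.63 (adjusted p = 8.58e-07). Over the same span the change of Hbb-y less that of shared beta globin was -4.05, that of Hbb-bh1 -1.81, and that of Hba-x less shared alpha -2.16, again with no overlap between arrays.

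**Figure D2:**
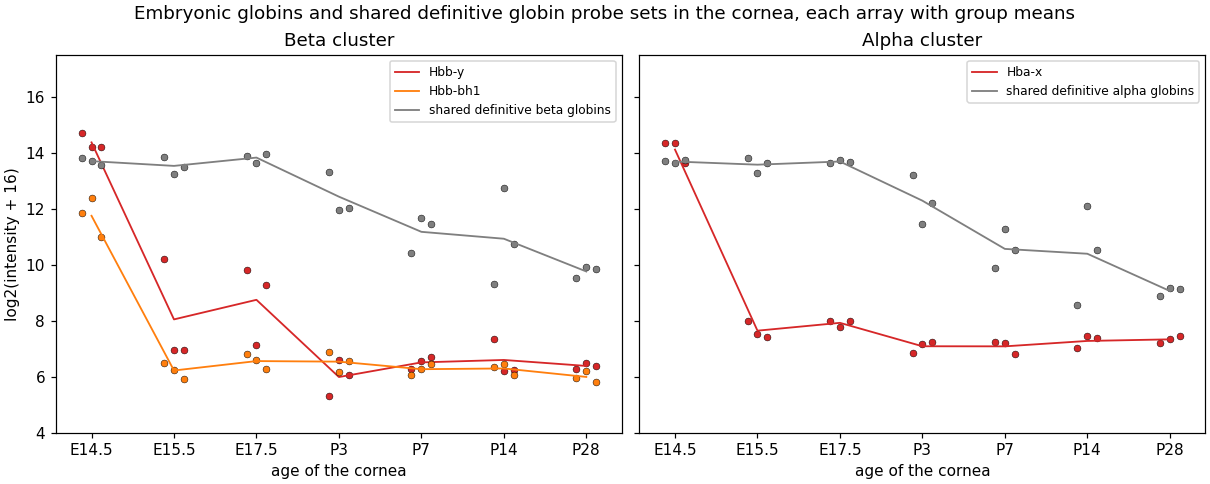
Embryonic and shared definitive globin probe sets in the cornea, log2(intensity + 16) against age, beta-like genes in one panel and alpha-like genes in the other. Points are arrays and lines join means of 3. The definitive probe sets stay between 13.23 and 13.97 through E17.5, while Hbb-y and Hba-x drop from 13.65 or more at E14.5 to 10.21 or less.

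Alas2, the erythroid enzyme of the first step of heme synthesis, followed another course. It was at 10.4, 10.58 and 9.65 at E14.5 and at 9.55, 8.52 and 8.47 at E15.5, a change of -1.36 ± 0.36 (SE) that is 2.57-fold lower (limma, adjusted p = 0.00666). At E17.5 it was at 10.84, 8.97 and 10.6, with replicates 1 and 3 back at the E14.5 level and replicate 2 low. At P3 it was at 8.88, 8.02 and 8.28, and every later array lay between 7.9 and 8.34.

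From E15.5 to E17.5 none of the 8 genes passed limma's test, against 0.306% of all genes, and 1 had an unadjusted p under 0.05. Alas2 changed by 1.29 (adjusted p = 0.0987) and Hbb-y by 0.7 (adjusted p = 0.792). Without E17.5 replicate 2 the Alas2 change was 1.87 (adjusted p = 0.00122), and without E15.5 replicate 1 it was 1.64 (adjusted p = 0.0191). From E17.5 to P3, Hbb-y fell by 2.77 ± 0.65 (SE) or 6.8-fold (adjusted p = 0.0102) and Alas2 fell by 1.74 ± 0.36 (SE) or 3.35-fold (adjusted p = 0.00463), 2 of 8 against 0.978% of all genes called lower. Hba-x changed by -0.84 (adjusted p = 0.00672), which is under 2-fold. Neither fall passed with only these 2 ages in the model, and without E17.5 replicate 1 Hbb-y changed by -2.23 (adjusted p = 0.051).

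Muscle genes also varied between these arrays. The skeletal muscle actin Acta1 was at 8.78, 8.86 and 8.47 at E14.5, at 11.25, 8.04 and 8.45 at E15.5, at 12.41, 9.21 and 12.55 at E17.5 and at 7.52, 7.89 and 8.49 at P3. The arrays with high Acta1 were thus E15.5 replicate 1 and E17.5 replicates 1 and 3, the same that were highest within their age in Hbb-y and Alas2. The summed intensity of the 6 skeletal muscle markers was 8830, 14124 and 4877 at E14.5, where Alas2 was at 10.4, 10.58 and 9.65 in the same array order. It was 15148, 1405 and 2539 at E15.5, 37284, 4415 and 36325 at E17.5 and 1427 to 1620 at P3, and 5 of the 6 fell from E17.5 to P3. The part of muscle tissue in the levels of Alas2 and Hbb-y was not tested.

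**Figure D3:**
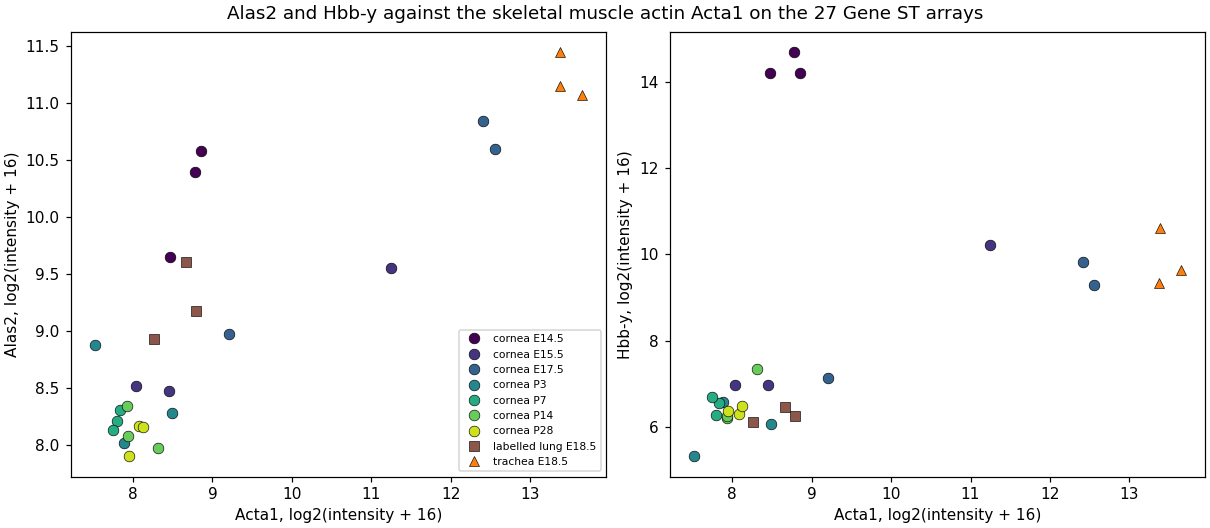
Levels of Alas2 and Hbb-y against the level of the muscle actin Acta1, all log2(intensity + 16), with each of the 27 Gene ST arrays as a point coloured by group. Trachea and the arrays labelled lung stood apart from cornea in probe set differences, so tissue and array set cannot be told apart between them. The 3 trachea arrays (Acta1 at 13.37 to 13.65) have Alas2 at 11.07 to 11.45, and the cornea arrays with Acta1 above 11 have Alas2 between 9.55 and 10.84, while Hbb-y is highest at E14.5, where Acta1 was 8.47 to 8.86 and the summed muscle markers were 4877 to 14124.

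The membrane genes changed less. Slc4a1, the band 3 anion exchanger, was at 8.91, 9.17 and 8.45 at E14.5 and at 8.16, 7.93 and 7.92 at E15.5, a difference of -0.84 (limma, adjusted p = 8.58e-05) that is 1.79-fold and so under the limit. Its E14.5 arrays lay above every later cornea array. By P28 it was at 7.73, 7.89 and 7.8 and had fallen by 1.04 ± 0.14 (SE) or 2.06-fold (adjusted p = 2.28e-06), just past the limit, and without E14.5 replicate 2 it changed by -0.88. Epb42, the membrane skeleton protein 4.2, was at 8, 7.73 and 7.53 and then at 7.01, 7.24 and 7.28, a difference of -0.57 (adjusted p = 0.0352).

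The 2 nuclear regulators of the set did not pass at any step between neighbouring cornea ages. Hemgn, a nuclear protein of blood-forming cells, was at 8.06, 8.42 and 7.46 at E14.5 and at 7.45, 7.58 and 7.3 at E15.5, a difference of -0.54 (limma, adjusted p = 0.0603). Klf1, which switches on definitive globin and other erythroid genes, was at 8.08, 7.61 and 7.61 and then at 7.57, 7.68 and 7.58, with a difference of -0.16 (adjusted p = 0.401). Klf1 group means over the 7 ages ran only from 7.43 to 7.78.

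From P3 onward the set was flat. None of the 8 genes passed limma's test from P3 to P7, from P7 to P14 or from P14 to P28, against 1.42%, 0.015% and 4.47% of all genes, and 0 had an unadjusted p under 0.05 at each step. From E14.5 to P28, 5 of 8 fell against 5.54% of all genes called lower, with changes of -7.99 in Hbb-y, or 254-fold (adjusted p = 1.19e-09), -6.79 in Hba-x, -5.76 in Hbb-bh1 and -2.13 in Alas2.

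Other erythroid genes gave mixed counts at the first step, where 7.56% of all genes were called in either direction. From E14.5 to E15.5, 0 of 9 other heme synthesis genes passed limma's test (4 with an unadjusted p under 0.05, median change -0.11), as did 0 of 13 reticulocyte and late erythroid genes (5 unadjusted). The other 3 embryonic globin genes on the array also counted 0, with 2 at an unadjusted p under 0.05. Of the 9 red cell enzymes 2 fell, Car2 (carbonic anhydrase 2) with a change of -1.49 and Bpgm, which makes the regulator of oxygen release, with -1.11, and 6 had an unadjusted p under 0.05. Of 8 iron and erythropoietin genes 1 fell, the transferrin receptor Tfrc with a change of -2.22 (2 unadjusted). Of 15 membrane and skeleton genes 1 passed, the water channel Aqp1, which rose by 4.21, while 8 had an unadjusted p under 0.05 and the median change was -0.28. Of 13 erythroid transcription factors Myb, a factor of immature blood cells, fell by 2.3, while Zbtb7a rose by 1.84 and Foxo3 by 1.13 (5 unadjusted). These genes are also used outside red cells.

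Markers of other tissues moved between the same ages. From E14.5 to E15.5, 5 of 7 lens markers fell (Cryga changed by -7.62), 2 of 7 neutrophil markers fell (S100a8 with -2.62 and S100a9 with -3.07) and 3 of 4 cornea markers rose, while 0 of 8 endothelial markers passed limma's test. The E14.5 arrays were uneven, with summed intensities of 6089, 71545 and 63927 for lens and 12832, 2049 and 1966 for neutrophils. At E15.5 these sums were 2372 to 3072 for lens and 1097 to 1168 for neutrophils. Summed endothelial marker intensity was 1522 to 3949 at E14.5 and 2104 to 3941 at E15.5, so the vessel markers overlapped between these ages. The part of a change in dissected tissue in the globin fall was not tested.

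At E18.5 the trachea carried more embryonic globin and Alas2 signal than the arrays labelled lung. Of the 8 genes 3 were higher in trachea, Hbb-y, Alas2 and Hba-x, against 10.8% of all genes called higher, and none was lower. Hbb-y was at 10.61, 9.33 and 9.63 in trachea and at 6.1, 6.24 and 6.46 in the arrays labelled lung, a difference of 3.59 ± 0.65 (SE) or 12.1-fold (limma, adjusted p = 8.98e-05). Alas2 was at 11.15, 11.45 and 11.07 against 8.93, 9.18 and 9.61, a difference of 1.98 ± 0.36 (SE, adjusted p = 8.78e-05). Hba-x was at 8.59, 8.22 and 8.51 against 6.8, 7.1 and 6.92, a difference of 1.5 ± 0.18 (SE, adjusted p = 4.9e-07). The organs did not overlap for any of these 3 genes, nor for Slc4a1 and Hemgn, which were not called. The share of all genes without overlap was not counted.

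The rest of the set moved less between these organs. Slc4a1 differed by 0.56 (limma, adjusted p = 0.0021), under 2-fold, Hemgn by -0.48 (adjusted p = 0.0665), Hbb-bh1 by 0.15 (adjusted p = 0.677), Klf1 by -0.05 and Epb42 by 0.03. Shared definitive beta globin differed by 0.34 (adjusted p = 0.672) and shared alpha by 0.51 (adjusted p = 0.524). Beside these values, all 6 skeletal muscle markers, 5 of 6 fetal liver markers and 4 of 8 endothelial markers were higher in trachea. Their summed intensities were 58605 to 83011 against 1195 to 2344 for muscle, 8901 to 13563 against 612 to 653 for fetal liver, and 8385 to 10417 against 4560 to 4851 for endothelium, and the part of these tissues in the difference was not tested.

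In skin the embryonic beta globins were lower at E16.5 than at E14.5, across the 2 array sets. Of the 8 genes 4 were lower (Hbb-y, Hbb-bh1, Epb42 and Hemgn), against 25% of all genes called lower, and Alas2 was higher, against 18.2% called higher. Hbb-y was at 12.37, 12.32 and 11.7 at E14.5, at 8.29, 5.84 and 6.83 at E16.5 and at 5.52, 4.46 and 4.65 at E18.5. The 3 ages did not overlap.

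Hbb-y differed by -5.15 ± 0.49 (SE) from E14.5 to E16.5 (limma, adjusted p = 9.04e-09), and shared definitive beta globin, at 13.18, 13.19 and 13.23 and then 13.03, 13.1 and 13.07, by -0.13 (adjusted p = 0.706). The change of Hbb-y less that of shared beta globin was -5.01, without overlap between arrays (exact permutation test, two-sided p = 0.1, the smallest possible). That test counts E14.5 replicates 1 and 2, which may be 1 sample, as separate arrays. With them joined as 1 sample in limma's model, Hbb-y kept its call. Hbb-bh1 was at 6.74, 6.86 and 6.59 and then at 5.15, 4.42 and 4.66, a difference of -1.99 (limma, adjusted p = 9.44e-07). Across the same ages and sets, the 2 probe sets of the definitive globin Hbb-b2 went opposite ways, with changes of -5.65 and 2.6.

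In skin Hba-x fell between E16.5 and E18.5. It was at 9.35, 9.21 and 8.79 at E14.5, at 8.95, 7.25 and 8.02 at E16.5 and at 5.9, 5.38 and 5.21 at E18.5. The first step overlapped and did not pass (-1.05, limma, adjusted p = 0.0622), and the second was a change of -2.58 ± 0.48 (SE) that is 5.97-fold lower (adjusted p = 0.000869). Without E16.5 replicate 1, the first step was -1.48 (adjusted p = 0.0155). Whether its course differs from that of Hbb-y was not tested.

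From E16.5 to E18.5, within 1 array set, 4 of the 8 genes fell against 2% of all genes called lower. These were Hba-x, Hbb-y with a change of -2.11 (limma, adjusted p = 0.0062), Slc4a1 with -1.83 (adjusted p = 0.0237) and Alas2 with -1.29 (adjusted p = 0.0413). Slc4a1 was at 8.65, 7.56 and 7.37 and then at 6.1, 5.7 and 6.3, with no overlap. When normalized and fitted within the array set alone, 1 of the 4 falls passed, that of Hba-x (adjusted p = 0.0191), and it was also the 1 that passed without E16.5 replicate 1, the highest in all 4 genes. Without E18.5 replicate 2, Hba-x and Hbb-y passed (2 of 4). With only the groups compared in the model the Hbb-y call was lost too (adjusted p = 0.0855). The Alas2 call ended in 8 of 14 alternatives, among them 5 of the 6 single arrays left out, a pseudocount of 1 and the mean of all probe sets. Shared definitive beta globin changed by -0.53 (adjusted p = 0.306), and 1 of the 3 shared alpha probe sets rose, by 1.03 (adjusted p = 0.0136).

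Alas2 in skin was at 7.56, 7.42 and 7.41 at E14.5, at 11.26, 10.53 and 10.46 at E16.5 and at 9.76, 9.32 and 9.3 at E18.5. It was highest at E16.5, when the embryonic beta globins were already low, and the 3 ages did not overlap. The difference from E14.5 to E16.5 was 3.29 ± 0.41 (SE, limma, adjusted p = 4.22e-07) across array sets. Summed muscle marker intensity was 3629 to 6149 at E14.5, 37312 to 43251 at E16.5 and 26654 to 35170 at E18.5. Summed endothelial marker intensity was 2632 to 2719, 14178 to 18051 and 2366 to 3324 at these ages, and the part of muscle and vessels in these values was not tested.

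Of the other members in skin, Epb42 was at 5.74, 4.98 and 6.01 at E14.5 and between 4.18 and 4.47 in the 6 later arrays, near the level of an intensity of 0. Hemgn was at 6.41, 6.13 and 6.63 at E14.5 and between 4.66 and 5.2 later. Klf1 stayed between 4.74 and 5.76 in all 9 arrays and passed no test. From E14.5 to E18.5, 6 of 8 genes were lower against 24% of all genes and Alas2 was higher against 18.6%, with Hbb-y lower by 153-fold and Hba-x by 12.3-fold. Over that span the change of Hbb-y less that of shared beta globin was -6.59, that of Hbb-bh1 -1.56, and that of Hba-x less shared alpha -4.33.

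In bladder, Hbb-y was still high at E16.5 and fell by E18.5. It was at 11.48 and 11.2 at E14.5, at 10.08, 10.58 and 9.65 at E16.5 and at 6.57, 4.74 and 5.62 at E18.5. The ages did not overlap. From E14.5 to E16.5 none of the 8 genes passed limma's test, against 0.341% of all genes, with 2 at an unadjusted p under 0.05, and Hbb-y differed by -1.24 (adjusted p = 0.474). From E16.5 to E18.5, 2 of 8 fell against 2.15% of all genes called lower, Hbb-y with a change of -4.46 ± 0.49 (SE) or 22-fold (adjusted p = 5.06e-06) and Hbb-bh1 with -1.28 ± 0.26 (SE, adjusted p = 0.00222).

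Hbb-bh1 in bladder was at 5.75 and 6.42, then at 5.71, 5.78 and 5.8, and at 4.73, 4.72 and 4 at E18.5. Its fall between the last ages did not pass with the mean of all its probe sets (-0.65). Slc4a1 was at 7.6, 8.16 and 8.37 at E16.5 and at 7.17, 6.76 and 6.2 at E18.5, a difference of -1.33 (limma, adjusted p = 0.0927) that passed with only the bladder groups in the model (adjusted p = 0.0299). Hba-x was at 8.14 and 5.59 in the 2 arrays at E14.5 and between 4.74 and 6.14 later. Its change from E14.5 to E18.5, -1.79 (adjusted p = 0.0203), was -0.52 (adjusted p = 0.578) without E14.5 replicate 1, which leaves 1 array at that age, assumed to vary like the other groups.

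Shared definitive beta globin in bladder was at 12.55 and 12.1, at 12.61, 12.79 and 12.86 and at 12.95, 12.45 and 12.21. From E14.5 to E16.5 the change of Hbb-y less that of shared beta globin was -1.67, and that of Hbb-bh1 -0.75. That of Hba-x less shared alpha was -1.47. The arrays did not overlap in these differences (exact permutation test, two-sided p = 0.1, the smallest possible). With an array left out, Hbb-y ran from -1.89 to -1.39, Hbb-bh1 from -1.31 to -0.2 and Hba-x from -2.54 to -0.4. From E16.5 to E18.5 shared beta globin changed by -0.22 (limma, adjusted p = 0.671). The E18.5 group is the Get1 +/- one, so this step joins an age and a genotype. Alas2 in bladder was at 5.78 and 5.22, at 6.14, 6.62 and 7.17 and at 7.18, 6.34 and 5.89, and no step passed, with 1.14 from E14.5 to E16.5 (adjusted p = 0.385). Summed muscle marker intensity was 662 to 1017 at E14.5, 2531 to 3877 at E16.5 and 6677 to 7039 at E18.5, without overlap, and its part in these values was not tested.

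From E14.5 to E18.5 in bladder, 3 of 8 genes fell (Hbb-y, Hbb-bh1 and Hba-x) against 3.53% of all genes called lower, with a change of -5.7 in Hbb-y or 51.9-fold (limma, adjusted p = 6.93e-07). Around the set from E16.5 to E18.5, 6.14% of all genes were called in either direction. At this step 0 of 9 other heme synthesis genes passed and 0 of 3 definitive globin genes with a probe set of their own. In each of these lists 0 had an unadjusted p under 0.05. Counts of 0 in lists this small do not set them apart from that share. The membrane skeleton gene Ank1 (ankyrin) rose by 3.04 and Aqp1 by 1.25, and the rest of the 13 erythroid transcription factors, 8 iron genes and 9 red cell enzymes counted 0 called, with 4, 4 and 1 at an unadjusted p under 0.05.

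Between E14.5 and E16.5 the change in skin differed from that in bladder for 4 of the 8 genes in limma's interaction test, against 42.2% of all genes called in either direction. That count was near the share over all genes and does not set the listed genes apart. For Hbb-y, skin minus bladder change was -3.91 (adjusted p = 0.00015). As the skin arrays change set between these ages and the bladder arrays do not, tissue and set cannot be told apart here.

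**Figure D4:**
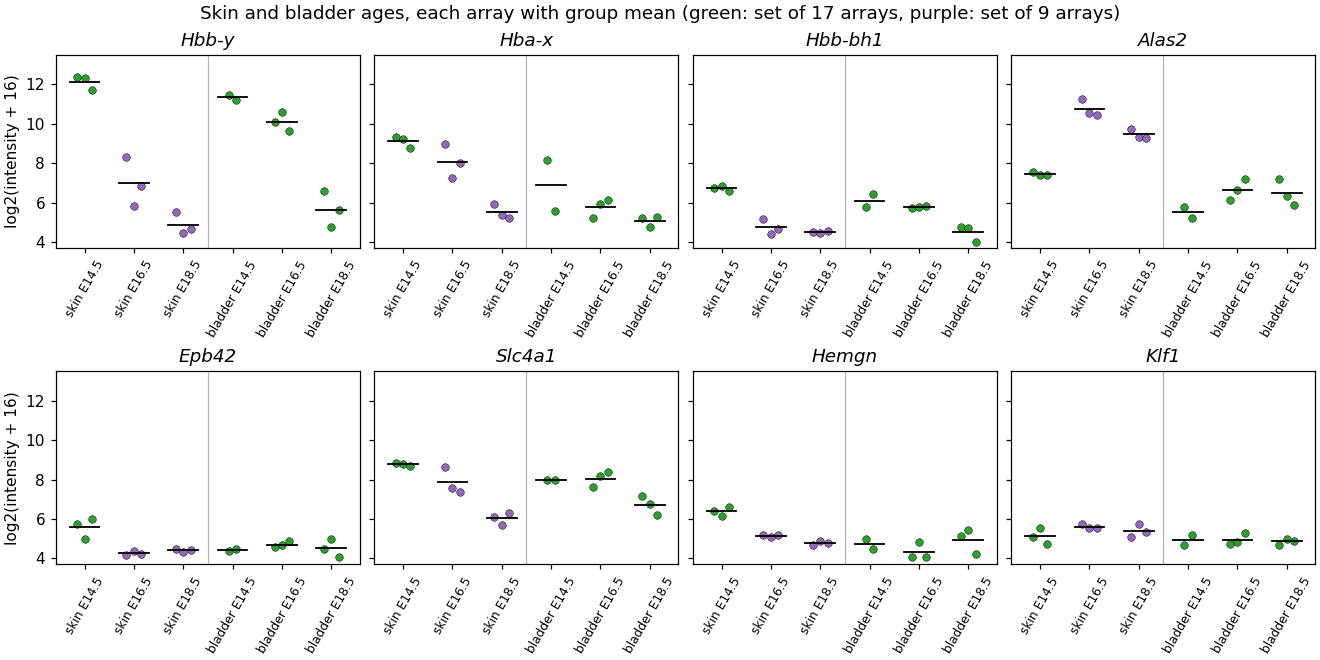
Levels of the measured genes in each skin and bladder array, log2(intensity + 16) against age. Points are arrays (n = 3, or 2 for bladder at E14.5), coloured by array set (green for the 17, purple for the 9), and bars mark means. Hbb-y in skin is at 8.29 or below by E16.5, while in bladder it is at 9.65 or above at E16.5 and at 6.57 or below at E18.5.

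At E14.5 the levels in skin and bladder, on the same array set, could be compared directly. Of the 8 genes 4 were higher in skin, against 8.11% of all genes called higher: Hba-x by 2.25 ± 0.54 (SE, limma, adjusted p = 0.00363), Alas2 by 1.96 ± 0.46 (adjusted p = 0.00301), Hemgn by 1.67 ± 0.45 (adjusted p = 0.00942) and Epb42 by 1.16 ± 0.27 (adjusted p = 0.00274). Hbb-y differed by 0.79 (adjusted p = 0.326) and Hbb-bh1 by 0.65 (adjusted p = 0.117). The comparison was added after the values were seen, and without bladder replicate 2 only Epb42 passed, with 1 bladder array left, whose spread is taken from the other groups. With only these 2 groups in the model 2 of the 4 passed, Alas2 and Hemgn.

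Around the set at E14.5, the counts higher in skin, read against the same 8.11%, were 3 of 13 erythroid transcription factors, 3 of 15 membrane and skeleton genes, 1 of 9 other heme synthesis genes and 2 of 8 iron and erythropoietin genes (Tfr2 and Hfe). They were 3 of 11 reticulocyte and late erythroid genes (Isg20, Tent5c and Tspan33), 2 of 3 definitive globin genes with a probe set of their own (Hbb-b2 and Hba-a1) and 0 of 9 red cell enzymes, of which 1 had an unadjusted p under 0.05. In these lists 0 genes were lower in skin. The erythroid master regulator Gata1 was higher by 2.67 (limma, adjusted p = 8.22e-07) and Sox6, which takes part in silencing Hbb-y, by 2.04 (adjusted p = 3.78e-06). Among membrane genes Ank1 was higher by 1.78, Sptb (beta spectrin) by 1.14 and Ermap by 1.13, and the last enzyme of heme synthesis, Fech, by 1.09. Fetal liver markers stood higher too, 4 of 7 (Apoa1 by 5.93 and Afp by 4.58), with summed intensities of 26011, 26025 and 117 in the 3 skin arrays against 150 and 294 in bladder. Over skin replicates 1 to 3 in that order, Hba-x was at 9.35, 9.21 and 8.79, Alas2 at 7.56, 7.42 and 7.41, Hemgn at 6.41, 6.13 and 6.63 and Epb42 at 5.74, 4.98 and 6.01, and the part of liver in these differences was not tested. Without skin replicate 3, Epb42 differed by 0.94 and did not pass.

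At E18.5 Hbb-y was low in all 5 organs on the 3′ arrays. It was at 6.57, 4.74 and 5.62 in bladder, 5.52, 4.46 and 4.65 in skin, 5.23, 5.44 and 4.44 in small intestine, 4.57, 4.01 and 4.94 in stomach and 4.53, 4.78 and 4.15 in esophagus. These neighbours overlapped, and the F test over the 5 organs did not pass (limma, largest difference 1.15, adjusted p = 0.174). Hba-x lay between 4.28 and 5.95 and Hbb-bh1 between 4 and 5.09 in the same 15 arrays.

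Alas2 set the organs apart. It was at 9.76, 9.32 and 9.3 in skin, 8.05, 9.1 and 7.96 in small intestine, 7.18, 6.34 and 5.89 in bladder, 5.96, 5.66 and 4.67 in stomach and 4.97, 5.5 and 4.02 in esophagus. The 5 organs differed by up to 4.63 or 24.7-fold (limma F test, adjusted p = 2.59e-09), and 2 of 8 genes passed, Alas2 and Hemgn, against 71.1% of all genes. Skin and small intestine are on the other array set, so for them organ and set cannot be told apart.

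Within array sets the Alas2 order was less firm. Skin stood above small intestine by 1.09 ± 0.41 (SE, limma, adjusted p = 0.0408), 1 of 8 genes against 8.99% called higher, but 8 of 14 alternatives ended this call. Among bladder, esophagus and stomach, 2 of 8 genes passed against 17.3% of all genes. Alas2 was higher in bladder than in esophagus by 1.64 (adjusted p = 0.00505), bladder and stomach differed by 1.04 (adjusted p = 0.0708), and esophagus and stomach did not pass (-0.59, adjusted p = 0.389). The summed muscle markers were 26654 to 35170 in skin, 6677 to 7039 in bladder, 2987 to 4534 in esophagus, 487 to 1413 in small intestine and 327 to 363 in stomach. The summed endothelial markers were 10518 to 13461 in small intestine, 2366 to 3324 in skin, 1885 to 2573 in bladder, 1658 to 2161 in esophagus and 1871 to 1905 in stomach. The summed fetal liver markers were 15024 to 27545 in small intestine, 4101 to 5426 in stomach, 1135 to 1820 in esophagus, 324 to 1744 in bladder and 28 to 62 in skin. The part of these tissues in the Alas2 levels was not tested. Bladder at E18.5 is the Get1 +/- group and the other organs are wildtype, so organ and genotype cannot be told apart in any of its comparisons with them, for Alas2, for Hemgn or for the globins.

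Hemgn had another order. It was at 7.03, 5.71 and 6.65 in esophagus, 6.08, 6.9 and 6.19 in stomach, 4.67, 4.54 and 6.38 in small intestine, 5.12, 5.42 and 4.24 in bladder and 4.66, 4.88 and 4.78 in skin. Esophagus stood above bladder by 1.54 and stomach by 1.46 (limma, adjusted p = 0.00748 and 0.0119, with bladder minus each organ at -1.54 and -1.46). Without bladder replicate 1 the test over the 3 organs no longer passed for Alas2, and without bladder replicate 3 it no longer passed for Hemgn. Esophagus and stomach overlapped, and none of the 8 genes passed between them, against 7.05% of all genes, with 0 at an unadjusted p under 0.05. In small intestine the array numbered 4 was the high one for Hemgn and, at 7.73 against 5.09 and 5.54, for Slc4a1. Beside these levels, the summed intensity of the 7 neutrophil markers was 1536 to 5253 in esophagus, 1532 to 3489 in stomach, 540 to 678 in bladder and 262 to 514 in skin. In small intestine it was 238, 298 and 2372, with the array numbered 4 the highest, and the part of neutrophils in the Hemgn levels was not tested.

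The shared definitive probe sets differed among the organs as well. Shared alpha globin was at 13.42, 13.4 and 13.45 in skin and 13.06, 13.1 and 13.21 in small intestine, and at 11.84, 11.15 and 10.57 in bladder, 10.51, 10.64 and 9.75 in esophagus and 10.69, 10.16 and 9.54 in stomach. The highest 2 organs in this alpha probe set, skin and small intestine, were also the highest 2 in Alas2. Values of shared beta globin in all of these organs are not shown, so the order holds for the alpha probe set only. In skin from E14.5 to E18.5, across array sets, shared beta changed by -0.66 and shared alpha by 0.71. Both lie on the other array set, so organ and set cannot be told apart in either order. Within bladder, esophagus and stomach alone, shared beta globin differed by up to 1.11 (limma F test, adjusted p = 0.0086).

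**Figure D5:**
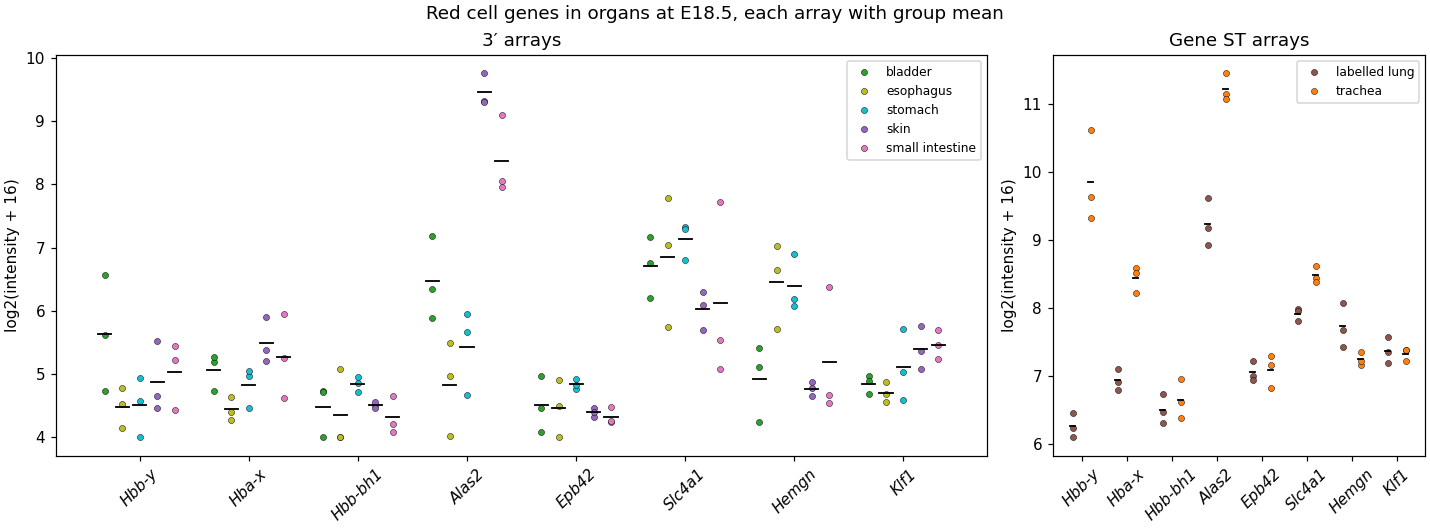
Levels of the measured genes in the E18.5 organs, log2(intensity + 16), in a panel for each array type, with each array as a point coloured by organ (n = 3 each) and bars at the means. Alas2 spreads from 4.02 to 9.76 on the 3′ arrays, and Hbb-y in trachea (9.33 to 10.61) lies above the arrays labelled lung (6.1 to 6.46).

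The genes whose level ran most like that of Hbb-y and of Alas2 were ranked by Pearson's r across arrays, which share groups and array sets, so r is a description only. Over the 27 Gene ST arrays, Hbb-y ran most like Hba-x (r = 0.92), followed by Slc4a1 and Igf2bp1 (both 0.88), an RNA-binding protein of the embryo. Hbb-bh1 was at rank 6 (0.85) and Alas2 at rank 86 (0.7). Alas2 ran most like the muscle genes Ttn and Actc1 (both 0.95) and Neb (0.94), and Hbb-y was at rank 597 among its neighbours. Over the 26 arrays of the 3′ type, Hbb-y ran most like Hbb-bh1 (0.9), the cell division gene Cdca8 (0.87) and Exo1 (0.86). There Alas2 had r = -0.01 with Hbb-y, and its closest gene was Fkbp5 (0.97), in a pattern that follows the 2 array sets.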

How the data were processed

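RNA of whole cornea, skin, bladder and other organs was measured on 53 arrays. The authors deposited one linear intensity for each probe set, and the submitters' processing notes name PLIER 2.0 and Affymetrix Expression Console 1.1.1. Sources used here do not give a normalization between arrays. Values were turned into log2(intensity + 16), quantile-normalized within each array type and tested with limma 3.58.1 in R 4.3.3 over all groups of a type, two-sided, with Benjamini-Hochberg adjustment over all genes. The pseudocount understates fold changes of dim genes. Each gene was read from its brightest probe set annotated to 1 gene, and RefSeq (GRCm38.p6) held 99.58% and 99.42% of these symbols. Shared globin probe sets were tested over all 35556 and 45101 probe sets. Array types were never compared. The tests were tested on simulated data. Members, lists and tests were chosen with earlier results of these data known, and 3 of 21 comparisons were added later. Other genes were named as called members of fixed lists. Replicate numbers were taken to pair arrays only in cornea P14 and P28, where same-numbered arrays deviated together (r = 0.133 to 0.242). The limma results reported use no pairing, which entered only as an alternative with a replicate block. Alternatives changed the normalization, pseudocount, probe set choice, filter, fold limit, model and arrays.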

Additional observations from a re-analysis of the deposited data

Results flagged for a closer look

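Skin and bladder differed in their change between E14.5 and E16.5 for 4 of the 8 measured genes by an interaction contrast in limma, against 42.2% of all genes called in either direction. The count was near that share, so it does not set the listed genes apart. Skin change minus bladder change was -3.91 for Hbb-y (adjusted p = 0.00015), with -5.15 in skin and -1.24 in bladder. It was -1.67 for Hbb-bh1 (adjusted p = 0.00124), with -1.99 and -0.32. It was -1.58 for Epb42 (adjusted p = 0.000859), with -1.32 and 0.26. It was 2.15 for Alas2 (adjusted p = 0.00579), with 3.29 in skin and 1.14 in bladder, so both were upward. The skin ages lie on different array sets and the bladder ages on the same one, so set and tissue cannot be told apart in these 4 values.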

How the results depend on the processing

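Of 53 gene changes that passed the test, 32 kept direction and call in every alternative run. Over 847 values 797 were unchanged in call, 50 no longer passed and 0 turned direction. F tests over several groups have no direction, so their values could not turn. An alternative without the fold limit could not end a call, so its values were unchanged by design. Of 115 changes that did not pass, 25 of 1682 values passed under an alternative and 91 turned direction. Some of the 25 passed only because the fold limit was dropped. The number of the 8 genes called went from 2 to 0 for cornea P3 against E17.5 with only the groups compared. It went from 4 to 1 for skin E18.5 against E16.5 within its array set. For bladder E18.5 against E16.5 it went from 2 to 1 with the mean of all probe sets. With a pseudocount of 1 it went from 4 to 2 for the skin change against the bladder change, from 2 to 4 over the 5 organs, from 1 to 0 for skin against small intestine and from 4 to 2 for skin against bladder at E14.5. On the 3′ arrays a filter to genes above the median level left 5 of the 8 genes to test, without Epb42 and Hemgn. The calls that went missing under it were those of genes it left out. Of these 5 genes 3 were called for skin E16.5 against E14.5 and 2 for skin against bladder. Over the 5 organs 1 was called, as was 1 over bladder, esophagus and stomach. Only the groups compared gave 1 over those 3 organs, 0 for skin against small intestine, as did the values as deposited (0), and 2 for skin against bladder. With an array left out in turn, counts ran from 0 to 1 for cornea E17.5 against E15.5, 1 to 2 for P3 against E17.5, 1 to 4 for skin E18.5 against E16.5, 0 to 1 for bladder E16.5 against E14.5 (1 array of the 2 left at E14.5, assumed to vary like the other groups), 1 to 3 over the 3 organs, 0 to 1 for skin against small intestine and 1 to 4 for skin against bladder. Of 15 differences between embryonic and definitive globin changes, 8 moved by less than the replicate spread in all alternatives. With values as deposited, or a pseudocount of 1, Hbb-y was at -4.32 (both) in cornea P28, Hbb-bh1 at -2.71 and -2.94 in skin E16.5 and at -2.08 and -2.9 in skin E18.5, and Hba-x at -5.13 and -4.91 in skin E18.5. Values as deposited gave -2.11 for Hba-x in skin E16.5, against -1.38 as reported. A pseudocount of 1 gave -7.78 for Hbb-y in skin E18.5, against -6.59. The second-brightest probe set gave -1.52 for Hbb-bh1 in bladder E16.5, against -0.75. The causes were not tested. A replicate block changed no count of the 8 genes called, with 4 from E14.5 to E15.5 and 0 from P14 to P28 in cornea, the pair of ages where numbers pair the arrays. Over all genes, calls for cornea E17.5 against E15.5 went from 61 to 0 with only the groups compared, 2 with the replicate block and 3 to 298 with an array left out. Those for P3 against E17.5 went from 285 to 136, those for skin against small intestine from 3500 to 2324, and those for bladder E16.5 against E14.5 from 62 to 0, all with only the groups compared. Those for skin E18.5 against E16.5 went from 808 to 507 with the mean of all probe sets. Values as deposited moved the share higher among called genes from 55% to 33.6% there and from 31.6% to 46.1% for P3 against E17.5. Levels near 4, as for Epb42, Klf1 and Hbb-bh1 on the 3′ arrays, limit what changes could be seen.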
